A study of Mus musculus with 33 samples.

Results

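MicroRNA (miRNA) levels were compared between whole lungs of vehicle-treated mice taken 3 days and 1 day after instillation into the trachea. The 12 samples titled as day 3 controls or day 1 controls, 6 of each, were chosen by title from the 33 samples of the series, and all 611 mouse miRNAs on the array were considered. All mice were non-pregnant female C57BL/6 animals, an inbred laboratory strain, and their age is not given in the labels. The vehicle was a 0.9% NaCl solution in MilliQ water with 10% (v/v) acellular bronchoalveolar lavage fluid, the cell-free rinse of the airways, and it carried 0 mg of particles. No untreated lung was analysed here. The other mice of the series received 0.162 mg of Printex 90, a carbon black nanoparticle, in the same vehicle, with 6, 4 and 5 exposed samples at days 1, 3 and 28 and 6 control samples at day 28. Each sample was total RNA enriched with small RNA from 1 mouse on 1 one-colour array, and each replicate is called by its number in the sample title.

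MiRNAs are short RNAs cut from hairpin transcripts that guide Argonaute proteins to messenger RNAs, mostly through bases 2 to 8 of the miRNA, the seed. Some are limited to 1 cell type, so whole-lung RNA carries signal from endothelium (miR-126), airway and alveolar epithelium (the miR-200 family), ciliated cells (miR-34 and miR-449), leukocytes (miR-142 and miR-223), fibroblasts (miR-199a and miR-214) and red blood cells (miR-451). In such bulk tissue, fewer cells of a type and less RNA per cell cannot be told apart. Instillation of liquid itself can disturb the airways, so vehicle lungs serve as the reference for particle effects at each day.

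A mature sequence from RefSeq (GRCm38.p6) was matched to 100 of the 171 miRNAs that could be tested, 26 under the array's name and 74 under the current name of the arm. The other 71 were left unmatched, which does not mean that RefSeq lacks them. Capitals mark the seed, written 5′ to 3′. The let-7 family is shown first because its 9 members share 1 seed and had differences of 1 sign.
let-7a: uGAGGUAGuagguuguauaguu
let-7b: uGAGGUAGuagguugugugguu
let-7c: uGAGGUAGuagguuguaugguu
let-7d: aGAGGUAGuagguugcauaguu
let-7e: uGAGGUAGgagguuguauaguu
let-7f: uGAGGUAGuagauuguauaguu
let-7g: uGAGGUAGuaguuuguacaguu
let-7i: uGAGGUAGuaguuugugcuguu
miR-98: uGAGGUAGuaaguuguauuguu

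The next sequences are of 4 miRNAs with lower and 2 with higher day 3 means. They had the smallest unadjusted p-values in each direction among miRNAs above background on at least 4 arrays of 1 day, as far as a sequence was matched. A star marks the less abundant strand of a hairpin in the array's older naming. No seed is shared among these 6.
miR-877*: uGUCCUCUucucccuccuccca
miR-326: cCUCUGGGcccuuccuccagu
miR-214: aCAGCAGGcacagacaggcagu
let-7d*: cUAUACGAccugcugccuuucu
miR-335-5p: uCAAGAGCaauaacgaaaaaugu
miR-425: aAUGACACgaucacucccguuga
MiR-877* lies at chr17:35960731-35960752 on the minus strand, and miR-335-5p at chr6:30741314-30741336 on the plus strand. The miR-214 strand shown lies at chr1:162223438-162223459, plus strand.

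The last set is of 3 bright miRNAs that mark endothelium, red blood cells and tissue injury, in that order.
miR-126-3p: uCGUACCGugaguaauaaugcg
miR-451: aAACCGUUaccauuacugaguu
miR-21: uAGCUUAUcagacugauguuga

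The arrays differed in overall brightness before scaling. For the 156 probes found above background on each of the 33 arrays, the 75th percentile of signal was 472 ± 288 scanner units at day 1 and 708.9 ± 310 at day 3 (SD, n = 6 each). The ratio of the geometric means was 1.59 (two-sided exact permutation test over 924 splits, p = 0.162, adjusted p = 0.186 over 2 measures, where the smallest p possible is 0.00216). Mouse miRNAs above background numbered 132.8 ± 24.5 per array at day 1 and 150 ± 15.1 at day 3 (two-sided exact permutation test, p = 0.186). Without day 1 replicate 5, the brightest day 1 array, the brightness difference on the log2 scale went from 0.67 to 0.92 with an exact permutation p of 0.0455. The groups also differed in slide position, since all 6 day 1 arrays lay at position 1 and only 3 of the 6 day 3 arrays did. Slides 1, 4 and 7 held 1 array of each group, and all 5 scan days held arrays of both. Of the marker lists, 5 of 8 epithelial, 3 of 6 ciliated cell, 1 of 2 endothelial and 1 of 2 smooth muscle miRNAs were above background on all 12 arrays, among them miR-200a, miR-200b, miR-200c, miR-34b-5p, miR-34c, miR-126-3p and miR-143. On none of the 12 were miR-205 (epithelial), miR-34b-3p, miR-449b and miR-449c (ciliated), miR-145 (smooth muscle) and miR-150 (lymphoid), and miR-126-5p was above background on 1 day 1 array and 4 day 3 arrays. Of other tissues, 5 of the 6 brain miRNAs (miR-124, miR-138, miR-153, miR-219 and miR-9) were above background on none.

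**Figure D1:**
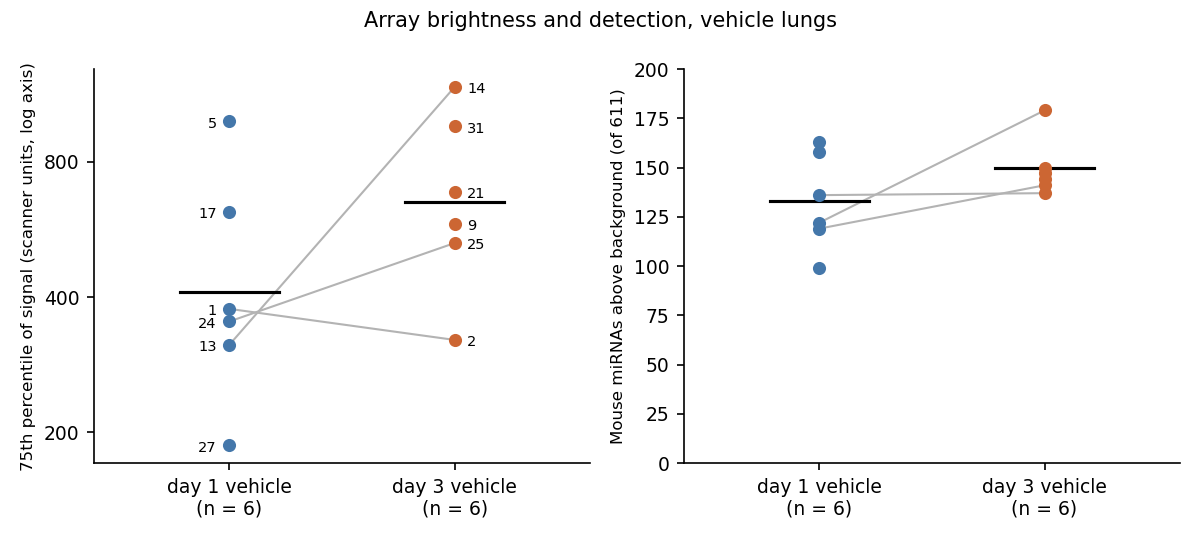
Brightness before scaling (left, 75th percentile of signal in scanner units on a log axis, points numbered by replicate) and the number of mouse miRNAs above background (right, of 611) in each vehicle array. Black bars are the geometric mean on the left and the mean on the right, grey lines join arrays of 1 slide, and the 2 groups overlap in both panels.

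No miRNA differed between day 3 and day 1 past an adjusted p of 0.05. Of 611 mouse miRNAs, 171 were above background on enough arrays to be tested, 420 were above it on none of the 12 vehicle arrays and 94 on all of them. In limma with Benjamini-Hochberg adjustment over the 171, 0 miRNAs passed (0%), and the smallest adjusted p was 0.416. At an unadjusted p below 0.05, 1 miRNA was higher at day 3 (0.585%) and 7 were lower (4.09%). These counts and their direction depended on the scaling and background correction. They were 0 higher and 76 lower with normexp background correction, 13 and 0 with the percentile taken over all probes, 42 and 0 without scaling, 15 and 4 with total gene signal and 7 and 7 with quantile normalization, and in each of these settings 0 passed the adjusted threshold. With only the 12 vehicle arrays in the limma fit, 0 miRNAs were higher and 1 was lower (miR-709) at an unadjusted p below 0.05. The smallest adjusted p of that fit was 0.995. The 6 values of 1 group lay all above those of the other for 0 of the 171 (0%). With arrays weighted by their estimated quality, limma called 3 miRNAs lower at day 3, which were miR-328, miR-877* and miR-702, with a smallest adjusted p of 0.0284.

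The size of differences that these arrays could have missed varied between miRNAs. The median difference (day 3 minus day 1, log2 scale) was -0.03, with 72 positive and 99 negative values, and the median absolute difference was 0.10. It was above 0.25 for 43 miRNAs, above 0.5 for 24 and above 1 for 0. The 95% confidence interval allowed a 2-fold difference for 33 of 171 miRNAs and excluded it in both directions for the other 80.7%, among them 90 of the 94 that were above background on all 12 arrays. A 1.5-fold difference was excluded for 111. These intervals hold for this scaling alone and do not include the uncertainty of the scaling. They and the SEs below use a spread estimated from all 33 arrays, so they may be too narrow where the vehicle groups varied more. Intervals from the 12 vehicle arrays alone were not computed. In the limma fit of those 12 arrays the smallest adjusted p was 0.995, against 0.416 with all 33. The median difference was -0.35 with normexp background correction, 0.25 with the percentile taken over all probes and 0.64 without scaling. The split of signs depended on the scaling between arrays: positive values made up 42.1% here, 84.2% with the percentile taken over all probes, 59.6% with total gene signal and 9.94% with normexp background correction.

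**Figure D2:**
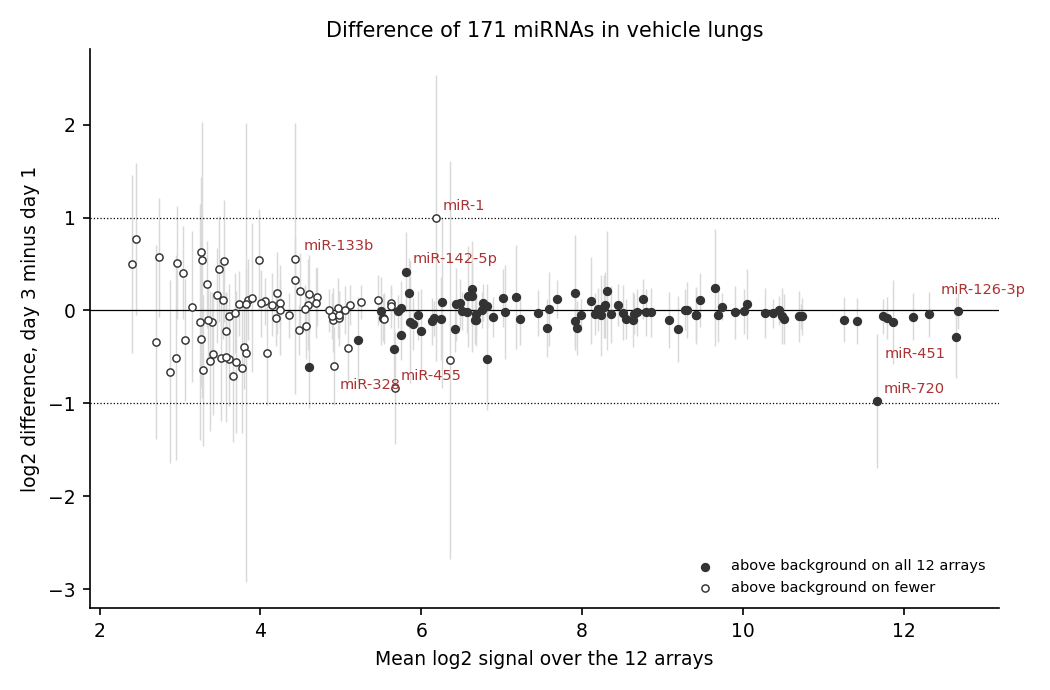
Difference in log2 signal (day 3 minus day 1, 6 arrays each) against mean log2 signal for 171 miRNAs, with 95% confidence intervals as grey bars and dotted lines at a 2-fold difference. Most filled points, above background on all 12 arrays, lie near 0, with miR-720 at -0.97 as the lowest of all, and no difference is beyond 1.

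The 4 smallest unadjusted p-values belonged to miRNAs that were lower on average at day 3. MiR-328, reported to regulate cardiac ion channels and beta-secretase, ranged over 4.99, 5.16 and 5.48 (lowest, median and highest log2 signal) at day 1 and over 3.34, 4.66 and 5.39 at day 3. The groups overlapped, and day 3 replicate 25 was the lowest. The difference of miR-328 was -0.60 ± 0.21 (SE; limma adjusted p = 0.416). Without day 3 replicate 25 it was -0.35 (limma adjusted p = 0.995). MiR-877*, the passenger strand of a mirtron (a hairpin spliced out as a whole short intron), had 4.17, 4.92 and 5.92 at day 1 and 3.64, 4.34 and 4.98 at day 3. Its difference was -0.61 ± 0.22 (adjusted p = 0.416), and the day 3 values covered the lower part of the day 1 range and went below it. Its other probe gave -0.46.

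MiR-720 and miR-455 had larger mean differences that, like that of miR-328, rested in part on 1 array. MiR-720, an array entry now regarded as a fragment of a transfer RNA, had 11.49, 12.34 and 12.47 at day 1 and 8.70, 11.74 and 11.96 at day 3. Its difference was -0.97 ± 0.35 (adjusted p = 0.416), and its other probe gave -1.08. Day 3 replicate 25, at 8.70, stood apart from the other day 3 arrays, which began at 11.06. Without that array the difference was -0.48 (limma adjusted p = 0.995). MiR-455, linked to cartilage and brown fat, had 5.66, 6.09 and 6.57 at day 1 and 3.34, 5.60 and 6.33 at day 3, a difference of -0.84 ± 0.30 (adjusted p = 0.416). The same array was its lowest, and without it the difference was -0.45 (adjusted p = 0.995).

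The same array was the lowest of all 12 for miR-326, miR-214 and let-7d*. MiR-326, which acts on Notch and Hedgehog signalling, had a difference of -0.40 ± 0.19 (adjusted p = 0.846), and -0.14 without day 3 replicate 25. MiR-214, expressed in fibroblasts and made from the same transcript as miR-199a, had 5.47, 5.90 and 6.14 at day 1 and 4.94, 5.66 and 6.08 at day 3, a difference of -0.27 ± 0.13 (adjusted p = 0.846). Without day 3 replicate 25 the miR-214 difference was -0.13. MiR-207 (-0.52 ± 0.25, adjusted p = 0.846) was the other of the 7 at an unadjusted p below 0.05, and it was above background on 3 day 1 arrays and 2 day 3 arrays. Let-7d* (-0.42), miR-709 (-0.52), let-7b* (-0.62), miR-574-5p (-0.40), miR-574-3p (-0.46) and miR-331-3p (-0.20) followed, each at an adjusted p of 0.846. Differences of these 12 leading miRNAs within slide 7, which holds day 3 replicate 25, ran as low as -3.62 for miR-720 and -2.73 for miR-455, against 0.02 and -0.24 within slide 1.

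The single miRNA at an unadjusted p below 0.05 with a higher day 3 mean was miR-335-5p, made from an intron of the imprinted gene Mest. Its lowest, median and highest log2 signals were 2.46, 3.75 and 4.55 at day 1 and 3.91, 4.31 and 4.46 at day 3, so that the day 3 values fell inside the day 1 range. The difference was 0.55 ± 0.27 (adjusted p = 0.846), and the miRNA was above background on 2 day 1 and 5 day 3 arrays. Without day 1 replicate 27 the difference of miR-335-5p was 0.29. MiR-142-5p, a strand of the hairpin expressed throughout blood cell lineages, had 4.80, 5.62 and 6.16 at day 1 and 5.27, 6.06 and 6.61 at day 3. All 12 arrays were above background for it, and the difference was 0.42 ± 0.21 (adjusted p = 0.846). MiR-375, found in airway and endocrine epithelium, had a difference of 0.53 ± 0.32, and miR-425 one of 0.44 ± 0.28, at an adjusted p of 0.846 each. The miR-425 value came from day 1 replicate 27, at 1.04 against 3.41 to 3.91 on the other day 1 arrays, and without that array the difference was 0.00. All of these positive values turned negative with normexp background correction.

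**Figure D3:**
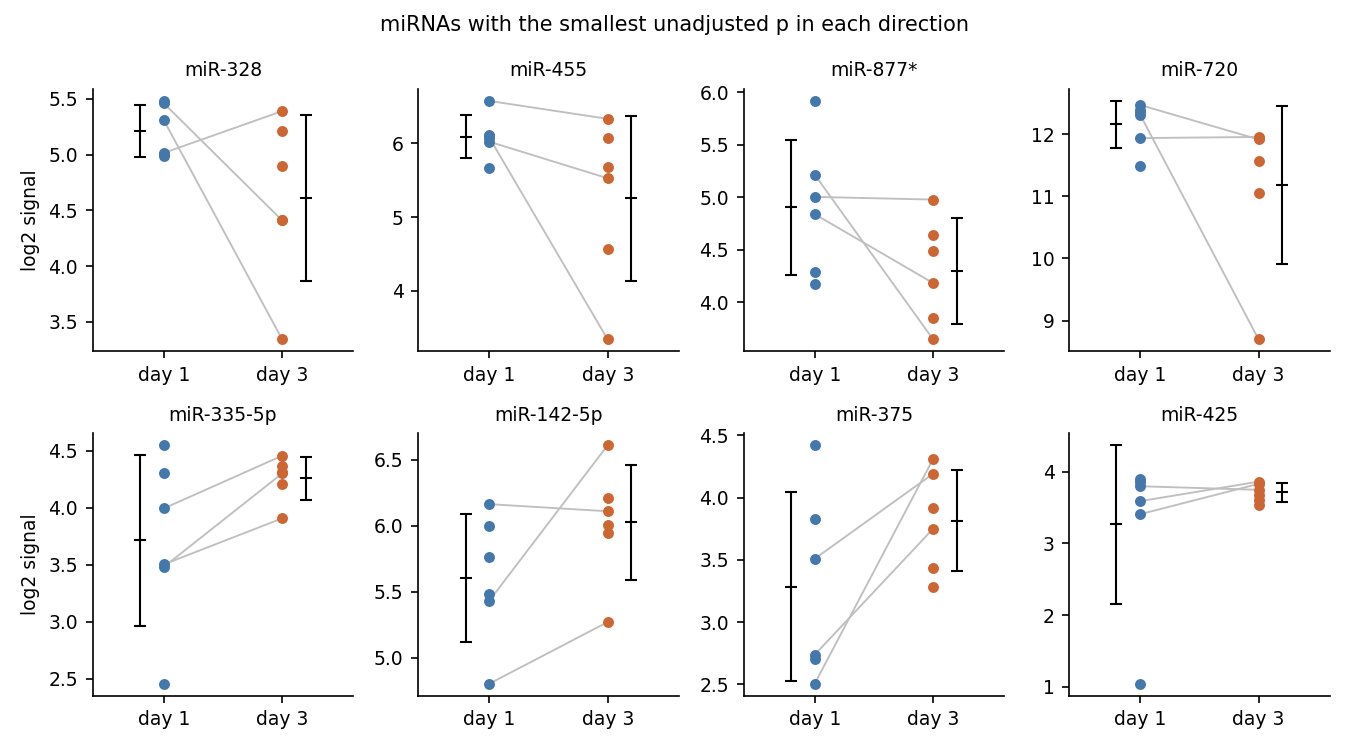
Log2 signal on each vehicle array for 4 miRNAs with the smallest unadjusted p among those lower at day 3 (top) and 4 among those higher (bottom), with mean and SD bars beside the points and grey lines joining arrays of 1 slide. The 2 days overlap in all 8 panels, and 1 day 3 array lies far below the others for miR-720 and miR-455.

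The remaining leading positive values were small or variable. MiR-542-3p, from the X-linked cluster with miR-322, miR-450 and miR-503, differed by 0.33 ± 0.22, and the 4 tested members of that cluster, of 9 on the array, had a median of 0.12 with 4 of 4 positive. Under normexp all 4 of them were negative. MiR-101a (0.12 ± 0.10), miR-193 (0.23 ± 0.20), miR-27b (0.12 ± 0.10), miR-181a (0.19 ± 0.18), miR-450a-5p (0.21 ± 0.20) and miR-20b (0.08 ± 0.08) followed, at an adjusted p of 0.928 each.

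Of the 10 brightest miRNAs, miR-720 had the largest negative difference of all 171 (-0.97), and the other 9 lay between -0.29 and -0.01. MiR-126-3p, made from an intron of Egfl7 in endothelial cells, had 12.37, 12.70 and 12.97 at day 1 and 12.38, 12.67 and 12.90 at day 3. Its fold (day 3 over day 1) was 0.996, with a 95% interval from 0.869 to 1.14. MiR-21, which rises in many injured tissues, had 11.54, 11.88 and 12.32 at day 1 and 11.52, 11.72 and 12.40 at day 3, a fold of 0.918 with an interval from 0.671 to 1.26. MiR-23a (-0.06 ± 0.09) and miR-22 (-0.10 ± 0.12) were similar. MiR-451, which red blood cell precursors make from a hairpin cut by Argonaute, had 12.39, 12.84 and 12.98 at day 1 and 11.93, 12.57 and 12.81 at day 3, a difference of -0.29 ± 0.21 (adjusted p = 0.918). Within the 5 scan days its difference ran from -0.84 to 0.00.

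For each list of markers, counts of positive and negative differences are given beside those over all tested miRNAs (72 positive and 99 negative, median -0.03), and in none did a member pass the threshold (0% of all tested). The 3 myeloid miRNAs had a median of 0.25. MiR-142-3p differed by 0.25 ± 0.31, miR-142-5p by 0.42 ± 0.21 and miR-223, the miRNA of neutrophils and monocytes, by -0.05 ± 0.21. The summed signal of the 3 ran over 9.16, 10.08 and 10.82 on the log2 scale at day 1 and over 9.84, 10.36 and 10.64 at day 3, so the day 3 arrays lay inside the day 1 range. Without day 1 replicate 1 the median was -0.04, and with normexp it was -0.12. Of the 4 tested lymphoid miRNAs, which included miR-181a and miR-342-3p, 3 were positive with a median of 0.11, and with normexp 4 of 4 were negative (median -0.36).

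Epithelial miRNAs had 5 positive and 2 negative values among 7 tested, with a median of 0.08, which turned to 1 positive and 6 negative with normexp (median -0.10). The bright members that restrain epithelial-to-mesenchymal transition lay near 0, with miR-200a at 0.06 ± 0.11, miR-200b at -0.04 ± 0.11, miR-200c at -0.04 ± 0.15 and miR-429 at 0.08 ± 0.10. The ciliated cell miRNAs, which act in the making of motile cilia, were positive in 3 of 3 with a median of 0.19. They were miR-34b-5p (0.21 ± 0.31), miR-34c (0.19 ± 0.30) and miR-449a (0.09 ± 0.45). Their signs turned with slide position as a term, under which 3 of 3 were negative with a median of -0.14. The fibroblast list had 3 of 3 negative values with a median of -0.14, where miR-199a-3p differed by -0.05 ± 0.14 and miR-199a-5p by -0.14 ± 0.14. That sign turned with the percentile over all probes, at a median of 0.14. Endothelial miR-126-5p, dim beside its partner strand, had -0.13 ± 0.62, and miR-143 of smooth muscle had 0.15 ± 0.27, which turned to -0.09 without day 1 replicate 1. Of the erythroid miRNAs, miR-486 differed by -0.31 ± 0.22 and miR-144, from the same transcript as miR-451, by 0.10 ± 0.23. The positive sign of miR-144 rested on day 1 replicate 24, without which all 3 erythroid miRNAs were negative.

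**Figure D4:**
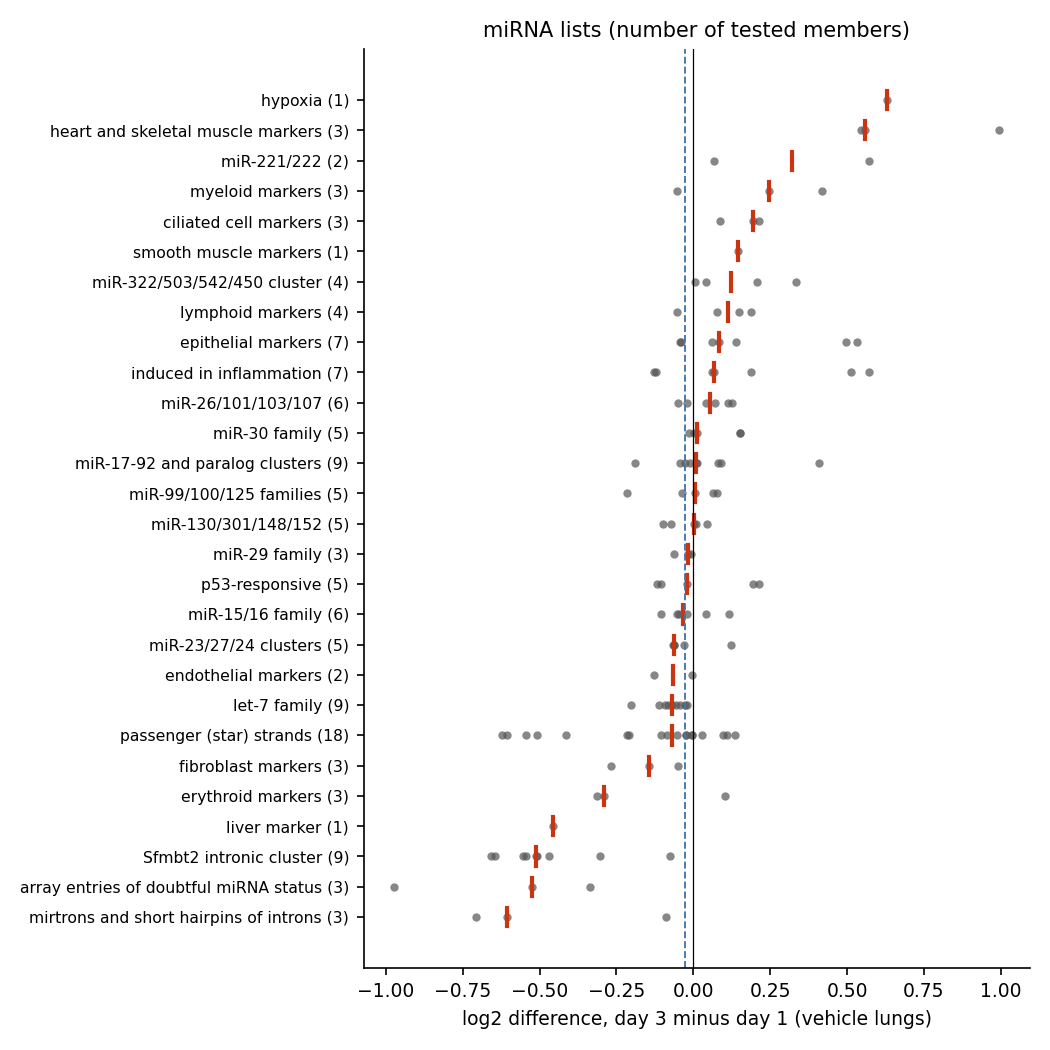
Difference in log2 signal (day 3 minus day 1) of each tested member (grey points) of 28 lists of miRNAs, with the list's median as a red bar, 0 as a solid line and the median of all 171 tested miRNAs as a dashed line. The number of tested members is in brackets, a list may share members with another, and no member passed the threshold.

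The largest mean difference above 0 was in a miRNA of heart and skeletal muscle, and its group varied widely between arrays. MiR-1, which represses non-muscle programmes in muscle, had 4.07, 4.80 and 9.51 at day 1 and 5.59, 6.62 and 8.34 at day 3. The single high day 1 array was replicate 17, and the other 5 day 1 arrays did not exceed 6.34. The difference was 1.00 ± 0.76 (adjusted p = 0.928), with a fold of 1.99 and an interval from 0.685 to 5.80. MiR-133b, its partner in muscle, was above background on 1 day 1 array and 5 day 3 arrays, the widest gap in detection among the tested miRNAs. It had 2.92, 3.47 and 7.60 at day 1 and 3.76, 4.63 and 6.30 at day 3, a difference of 0.56 ± 0.72, and miR-133a had 0.54 ± 0.73. The 3 stood high together on day 1 replicate 17 and on day 3 replicate 14. Without day 1 replicate 17 the differences were 1.76 for miR-1 and 1.25 for miR-133b (adjusted p = 0.493 and 0.597). The list's median of 0.56 turned to -0.41 with normexp. Summed over the 3, the log2 signal ran from 4.77 to 9.99 at day 1 and from 6.08 to 8.79 at day 3, and its part in the other differences was not tested.

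MiR-122, a liver miRNA, and miR-139-3p also varied widely. MiR-122 was at the floor of 0 on 1 day 1 array and 2 day 3 arrays and reached 6.99 and 7.16 on others, for a difference of -0.46 ± 1.21. MiR-139-3p had 4.98, 6.25 and 9.10 at day 1 and 3.55, 5.82 and 8.76 at day 3, a difference of -0.53 ± 1.05. For both, values differed more between arrays of 1 day than between days.

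Families that share a seed had small differences. The let-7 family, which restrains proliferation and is abundant in adult lung, had 9 of 9 negative values with a median of -0.07 and a range from -0.20 (let-7e) to -0.02 (miR-98). Let-7a had 11.86, 12.12 and 12.64 at day 1 and 11.91, 11.99 and 12.57 at day 3, and the difference was -0.07 ± 0.12. As the printed sequences show, members can differ at single bases outside the seed, so their probes may share signal. The count rested on 1 array, since 6 of 9 were positive without day 1 replicate 1. It also turned to 9 of 9 positive with the percentile over all probes. The miR-29 family, which targets collagen messages, had 3 of 3 negative with a median of -0.02, and the miR-30 family 4 of 5 positive with a median of 0.01. The miR-15/16 family had 4 of 6 negative (median -0.03). Without day 1 replicate 1, 2 of 3, 1 of 5 and 6 of 6 were positive in these families, in that order, and the miR-15/16 median was 0.08. Members of the miR-17-92 cluster and its paralogs had 5 positive and 4 negative among 9 tested (median 0.01), and with normexp 9 of 9 were negative.

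The list of the miR-466, miR-467 and miR-669 groups, many of which are made from an intron of Sfmbt2, had 39 names on the array, of which 28 were above background on none of the 12 arrays. All of the 9 tested were negative, with a median of -0.51 and a range from -0.66 (miR-669h-3p) to -0.08 (miR-669f). Their mean log2 signals at day 1 were low, from 3.20 to 4.24. With total gene signal 8 of the 9 were positive (median 0.19). RefSeq places miR-467f, 1 of the 9, outside that intron at chr11:69635419-69635439. These miRNAs are near-identical repeats, so signals of their probes may not be separate measurements.

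Among passenger strands 14 of 18 tested were negative, with a median of -0.07, and 93 of 115 on the array were above background on none of the 12 arrays. With total gene signal 11 of the 18 were positive. The mirtron list had 3 of 3 negative, namely miR-877* (-0.61), miR-702 (-0.71 ± 0.35, adjusted p = 0.846) and miR-1224 (-0.09). With brightness as a covariate the difference of miR-877* was -0.20 and the list's median -0.01. Entries of questioned miRNA status, which were miR-720, miR-709 and miR-689, were 3 of 3 negative with a median of -0.52. Without scaling between arrays 2 of these 3 were positive (median 0.14). With total gene signal, with the deposited values or without day 1 replicate 1, 1 of the 3 was positive. The Dlk1-Dio3 cluster, active mostly before birth, had 56 names on the array and 0 above background on any of the 12.

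MiRNAs known to be induced in inflammation had 5 positive and 2 negative values among 7 tested of 12, with a median of 0.07. That split turned to 0 positive and 7 negative with normexp (median -0.35), and to 3 positive and 4 negative without day 1 replicate 17 (median -0.0059). MiR-146a, a brake on Toll-like receptor signalling, differed by 0.06 ± 0.18 and miR-146b by -0.13 ± 0.32. MiR-155, a regulator of macrophage and lymphocyte activation, was not above background on any day 1 array and was so on 1 day 3 array. MiR-222 was above background on 0 and 2 arrays, and its fitted difference of 0.57 ± 0.31 carried no measured fold. MiR-221, from the same transcript, differed by 0.07 ± 0.19. Of the 9 tested miRNAs that were above background on no array of 1 of the 2 days, only miR-669c allowed a bound, a 1.04-fold higher mean at day 1. That bound compares means without their spread, and the difference of miR-669c was -0.30 ± 0.25. Its sign was kept in 4 of 8 other scalings, with values from -0.54 to 1.27. MiR-210, the hypoxia miRNA, was above background on 3 day 1 arrays and 2 day 3 arrays and differed by 0.63 ± 0.40. The value rested on day 1 replicate 27, without which it was 0.04, and it was -0.48 with normexp.

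The same interval in mice given carbon black was set beside the vehicle values, with 4 exposed arrays at day 3 and 6 at day 1 and no sample shared. Between exposed groups 0 of 171 passed (0%). An unadjusted p below 0.05 was reached by 1 miRNA higher at day 3 (0.585%) and 2 lower (1.17%). For the difference of the 2 changes, exposed minus vehicle, 0 passed (0%), and 3 positive (1.75%) and 1 negative value (0.585%) had an unadjusted p below 0.05. MiR-328 was 1 of these, at 0.18 ± 0.23 in exposed and -0.60 ± 0.21 in vehicle lungs, a difference of 0.78 ± 0.31 (adjusted p = 0.994). MiR-455 (1.04 ± 0.44), let-7d* (0.69 ± 0.31) and miR-155 (-1.10 ± 0.45) were the others, at the same adjusted p. Without day 3 replicate 25 the vehicle differences of miR-328, miR-455 and let-7d* were -0.35, -0.45 and -0.26. MiR-155 was not above background on any day 1 vehicle array, so its vehicle difference carried no measured fold. MiR-223 differed by -0.67 ± 0.24 in exposed lungs (adjusted p = 0.978) and by -0.05 ± 0.21 in vehicle lungs. MiR-1 differed by -1.23 ± 0.84 in exposed lungs, against 1.00 ± 0.76 in vehicle lungs. Signs were the same in both treatments for 81 of 171 miRNAs (47.4%). That count was made under the main scaling only. Positive vehicle differences made up from 9.94% (normexp) to 98.2% (no scaling) of the 171 in other settings.

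**Figure D5:**
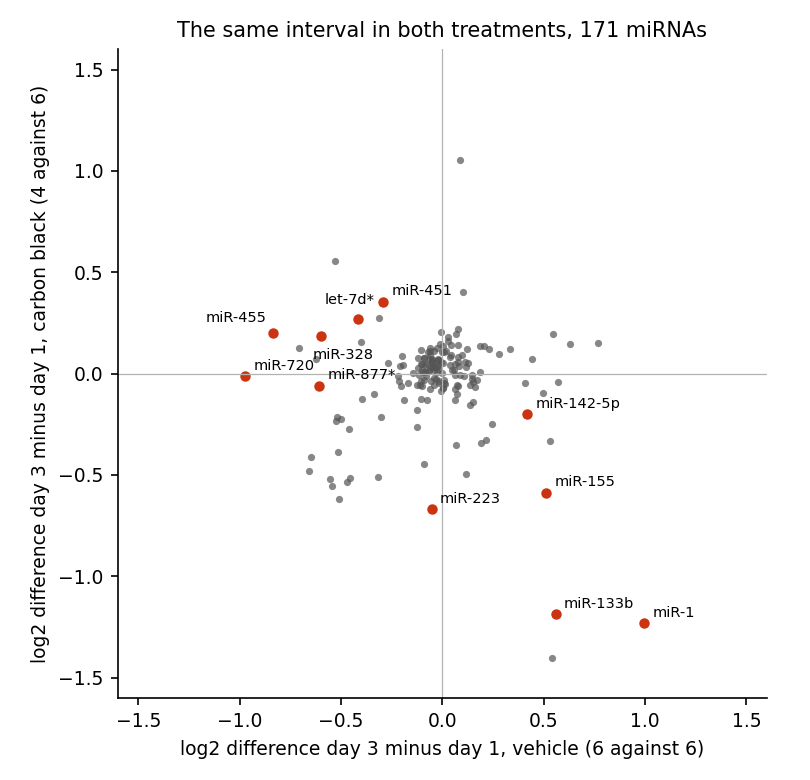
Difference in log2 signal between day 3 and day 1 in vehicle lungs (horizontal axis, 6 against 6 arrays) and carbon black lungs (vertical axis, 4 against 6) for 171 miRNAs, with named miRNAs in red. Most points gather near 0 on both axes, and miR-1 and miR-133b lie above 0 in vehicle and below 0 in exposed lungs.

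In the same fit, later vehicle lungs did hold miRNAs past the threshold. Day 28 minus day 1 gave 11 of 171 (6.43%) and day 28 minus day 3 gave 1 (0.585%), and these comparisons share the day 1 or day 3 arrays. All 6 day 28 vehicle arrays lay at slide position 2 and all 6 day 1 arrays at position 1. Day and position therefore cannot be told apart in day 28 minus day 1. Brightness before scaling ran from 633 to 1211 scanner units at day 28 and from 187 to 985 at day 1. MiR-877* had means of 4.90 ± 0.64, 4.30 ± 0.50 and 3.96 ± 0.18 (SD, n = 6) at days 1, 3 and 28, and the day 28 minus day 1 difference was -0.94 ± 0.22 (limma adjusted p = 0.0119). MiR-542-5p, of the X-linked miR-322 cluster, had 4.24 at day 1, 4.25 at day 3 and 3.21 at day 28. It passed against both earlier days, and its day 3 minus day 1 difference was 0.00 ± 0.24. MiR-140, a miRNA of cartilage, had 7.66, 7.46 and 7.06, with -0.19 ± 0.15 between days 3 and 1. MiR-29b was the only one of the 11 with a higher mean at day 28, at 10.02, 10.01 and 10.41.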

How the data were processed

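The scanner files as deposited hold spot intensity on a linear scale from Agilent one-colour (Cy3) mouse miRNA arrays, extracted with Feature Extraction 10.7.3.1 and already background-subtracted, per the file headers. The authors also deposited a table of processed values for the whole series, which were read as log2 with unstated centring and scaling (medians per array from 5.41 to 5.43) and served only as an alternative. These values correlated across miRNAs at 0.986 to 0.994 with the log2 median signal of the same array.

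Each array had 13715 spots, of which 13000 were not controls (1857 probes, 650 miRNAs, 611 of mouse). Control spots and outlier-flagged spots (2.32%) were left out, and 0 spots were saturated. Signals averaged per probe were scaled to an equal 75th percentile over the 156 probes named in the report, floored at 1 and log2-transformed. The brightest probe stood for a miRNA, and in 17 of 61 miRNAs with a second bright probe that probe gave the opposite sign. A miRNA was tested when above background on at least 4 arrays of any 1 group, which held for 171 mouse miRNAs. All 33 arrays entered 1 limma 3.58.1 model of 6 group means (lmFit, eBayes with a trend, R 4.3.3, package data.table version 1.17.8), two-sided, with Benjamini-Hochberg adjustment. Where a group was nowhere above background, a bound set the other group's mean against the dimmest signal above background on each array, or the probe's own signal if larger.

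Named were the 12 smallest p-values per direction among miRNAs above background on at least 4 arrays of a group, those with a detection gap of at least 4 arrays, the 10 brightest, the 6 of largest spread and list members as examples. MiR-207, miR-702 and the miRNAs of the later day and of carbon black were added after their values were seen. The comparison and lists were chosen with earlier results of these data known. Normexp used the median signal and median background with an offset of 50. Probe-based precision is limited by the number of arrays. The code was tested on simulated data.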

Additional observations from a re-analysis of the deposited data

Results flagged for a closer look

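In each group of 6 arrays, the highest or lowest value of every named miRNA and of both array measures was checked for a gap from the rest (Dixon's test at its 95% critical value). Of 80 groups checked, 11 had such a gap. The nominal rate of about 1 in 20 is no reference for this count. Some of the miRNAs were named for their large spread or small p-values in these same data, and several flags fall on the same array. Causes were not tested.

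At day 1, replicate 17 was high for 2 muscle miRNAs, miR-133b at a log2 signal of 7.60 against 2.92 to 4.38 on the other 5 arrays and miR-133a at 6.59 against 1.53 to 3.03. Replicate 27, the dimmest array, was low for miR-425 at 1.04 against 3.41 to 3.91. Replicate 24 was low for miR-451 at 12.39 against 12.77 to 12.98, and replicate 1 was high for miR-331-3p at 7.05 against 6.23 to 6.51.

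At day 3, replicate 25 was low for miR-720 at 8.70 against 11.06 to 11.96. Replicate 2 was high for 3 bright miRNAs, let-7f at 12.77 (others up to 12.33), let-7a at 12.57 (others up to 12.11) and miR-21 at 12.40 (others up to 11.80). Replicate 21 was high for miR-574-3p at 4.67 against 3.59 to 3.84. Replicate 14 had 179 mouse miRNAs above background against 137 to 150 on the others.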

How the results depend on the processing

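The comparison was repeated under 36 other settings, of which subtracting the median of all tested miRNAs from each array was chosen after seeing the data. The count of miRNAs past the threshold was 0 in all of them except with array weights, which gave 3 (miR-328, miR-877* and miR-702), and 1 between the exposed groups (miR-223). For the difference of the 2 changes, total gene signal gave 1 (miR-155). Leaving out 1 of the 12 arrays at a time gave 0 to 0 calls, with adjusted p-values down to 0.0812, and, at an unadjusted p below 0.05, 0 to 5 miRNAs higher against 1 and 4 to 14 lower against 7. The lower count was 13 without day 3 replicate 2, 14 without day 3 replicate 21 and 4 without day 1 replicate 13, day 3 replicate 14 or day 3 replicate 31, and the higher count was 5 without day 3 replicate 2 or day 1 replicate 17. With brightness as a covariate the smallest adjusted p was 0.981. The log2 brightness difference ran from 0.44 to 0.92 when 1 array was left out, and the difference in miRNAs above background from 10.1 to 22.9.

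Normexp, which moved the median difference to -0.35, turned the sign of miR-335-5p (-0.40), miR-142-5p (-0.12), miR-375 (-0.44), miR-425 (-0.48), miR-542-3p (-0.40), miR-101a (-0.027), miR-193 (-0.069), miR-181a (-0.18), miR-450a-5p (-0.38), miR-20b (-0.30) and miR-133b (-0.41). No scaling between arrays, which moved it to 0.64, turned miR-328 (0.069), miR-877* (0.061), miR-326 (0.26), miR-214 (0.40), let-7d* (0.25), miR-709 (0.14), let-7b* (0.047), miR-574-5p (0.27), miR-574-3p (0.21) and miR-331-3p (0.47). The percentile over all probes, at a median of 0.25, turned miR-214 (0.013) and miR-331-3p (0.081), and total gene signal turned miR-574-5p (0.21). Slide position as a term, and day 3 arrays at position 1 alone, each turned miR-101a (-0.014) and miR-193 (-0.024). Positive values made up 60.2% of the 171 with quantile normalization, 98.2% without scaling, 53.8% with the mean of all probes, 64.3% after centring and 30.4% with position as a term, against 42.1%. Beyond these shifts the cause was not tested.

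Pairing by replicate number was not possible because each number in the labels names a single array. Slide and scan day were used as blocks instead, with 0 calls each. Counts higher and lower at an unadjusted p below 0.05 were 6 and 12 with slide as a fixed block (smallest adjusted p 0.361), 6 and 13 with slide as a random block (correlation 0.359, smallest adjusted p 0.200) and 3 and 17 with scan day as a block (0.411). The deposited values carry no counts, so precision rests on the number of arrays and on signal over background.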

Other observations

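Probes for viral miRNAs stood outside the mouse comparison. Of the 39 viral miRNAs on the array, 1, mghv-miR-M1-2, was above background on 6 of 6 day 1 arrays and 6 of 6 day 3 arrays of vehicle lungs. Its log2 signal was 4.46 ± 0.96 at day 1 and 3.79 ± 0.65 at day 3 (SD, n = 6 each), and on exposed arrays it was above background on 5 of 6 at day 1 and 3 of 4 at day 3. What the probe binds in these lungs was not tested.

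The spread between arrays was larger at day 1 than at day 3 for 119 of the 171 tested miRNAs, with a median SD of 0.35 at day 1 and 0.30 at day 3.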
